A study of Homo sapiens with 9 samples.

Results

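The NF-κB subunits and a group of their feedback genes were followed in SET2 cells, a *JAK2* mutant megakaryoblastic leukemia line. The 10 genes were *NFKB1*, *NFKB2*, *REL*, *RELA*, *RELB*, *NFKBIA*, *NFKBIE*, *TNFAIP3*, *BIRC3* and *TNFAIP2*. The group was chosen with earlier results of these data known. Its genes were looked up by gene symbol, and each matched 1 of the 60662 genes in the deposited table. Bulk RNA-seq covered 3 libraries of wild-type (WT) SET2 cells and 3 from each of the *DYRK1A* CRISPR/Cas9 knockout (KO) clones 11H1 and 14B5, all post-MPN AML cells of the hematopoietic lineage grown without treatment, so every value below is a level in unstimulated cells. Each clone was grown from 1 sorted cell that had received Cas9 ribonucleoprotein by nucleofection, and was kept for out-of-frame indels, and WT was the parental line and not an unedited clone. The libraries of a clone share its founder, and no label says that they came from separate cultures, so p values measure the spread between these libraries, which may be technical. The effect of losing *DYRK1A* and the difference between founder cells cannot be told apart within 1 clone, and therefore each clone was set against WT on its own and the clones were set against each other.

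NF-κB is a family of DNA-binding dimers built from 5 Rel-homology proteins. RELA, REL and RELB carry a transactivation domain, whereas *NFKB1* and *NFKB2* encode the precursors p105 and p100, which are processed to p50 and p52 and can themselves hold dimers in the cytoplasm. IκB proteins, among them the products of *NFKBIA* (IκBα) and *NFKBIE* (IκBε), bind the dimers until IκB kinase marks them for degradation. Many of the genes that NF-κB switches on restrain or tune the pathway in turn. IκBα traps the dimers again, A20 (encoded by *TNFAIP3*) edits ubiquitin chains on upstream adaptors, and cIAP2 (encoded by *BIRC3*) is a ubiquitin ligase of the TNF receptor complexes. *TNFAIP2* is a TNF-inducible gene whose product acts on the exocyst and membrane protrusions. In megakaryocytic and other myeloid cells this pathway is known for carrying signals from TNF, IL-1 and Toll-like receptors.

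The letters upstream of the genes are shown first because most of these genes are known targets of the dimers they encode. RefSeq windows on GRCh38.p14 of 250 bases before each annotated start were at hand for 8 of the 10 genes, in 12 windows since some genes have several starts; *RELB* and *NFKBIE* are named only. The κB consensus, a site of 10 bases (GGGRNWYYCC), was searched on both strands. Here R is A or G, W is A or T, Y is C or T and N is any base. Every base had to match, so looser κB-like sites are not marked. A full match was present in 7 of the 12 windows, upstream of 6 of the 8 genes (*NFKB1*, *NFKB2*, *REL*, *NFKBIA*, *TNFAIP3* and *BIRC3*), and no full match lay in the windows of *RELA* or *TNFAIP2*. Of 34788 distinct windows of the same length over all genes 5.21% held a match, and of 27305 genes 6.28% held a match in any window. These 30-base stretches, 5′ to 3′ on the strand of the gene with the matching bases in capitals, show how the sites differ between the genes. Positions count back from the start, and where 2 matches overlap or lie side by side the range covers both:
BIRC3, chr11:102317275-102317304, plus strand, −199 to −190: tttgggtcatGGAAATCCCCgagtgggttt
BIRC3, chr11:102317339-102317368, plus strand, −135 to −126: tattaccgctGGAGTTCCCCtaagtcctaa
NFKB1, chr4:102501300-102501329, plus strand, −49 to −40: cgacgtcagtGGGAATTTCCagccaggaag
NFKB2, chr10:102394461-102394490, plus strand, −107 to −97: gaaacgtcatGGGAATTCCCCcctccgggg
NFKB2, chr10:102394490-102394519, plus strand, −78 to −69: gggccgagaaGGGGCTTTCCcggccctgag
NFKB2, chr10:102395519-102395548, plus strand, −176 to −167: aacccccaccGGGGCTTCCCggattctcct
NFKB2, chr10:102395674-102395703, plus strand, −21 to −12: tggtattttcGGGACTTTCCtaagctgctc
NFKBIA, chr14:35404811-35404840, minus strand, −81 to −72: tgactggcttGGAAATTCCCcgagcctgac
REL, chr2:60881517-60881546, plus strand, −47 to −37: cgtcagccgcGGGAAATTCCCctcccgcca
TNFAIP3, chr6:137867188-137867217, plus strand, −67 to −46: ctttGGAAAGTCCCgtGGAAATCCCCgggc
The stretches of *REL* and of *NFKB2* at −107 hold matches that overlap by all but 1 base, and *TNFAIP3* holds a pair of separate matches. A match is a description of the letters and not a measured binding site.

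**Figure D1:**
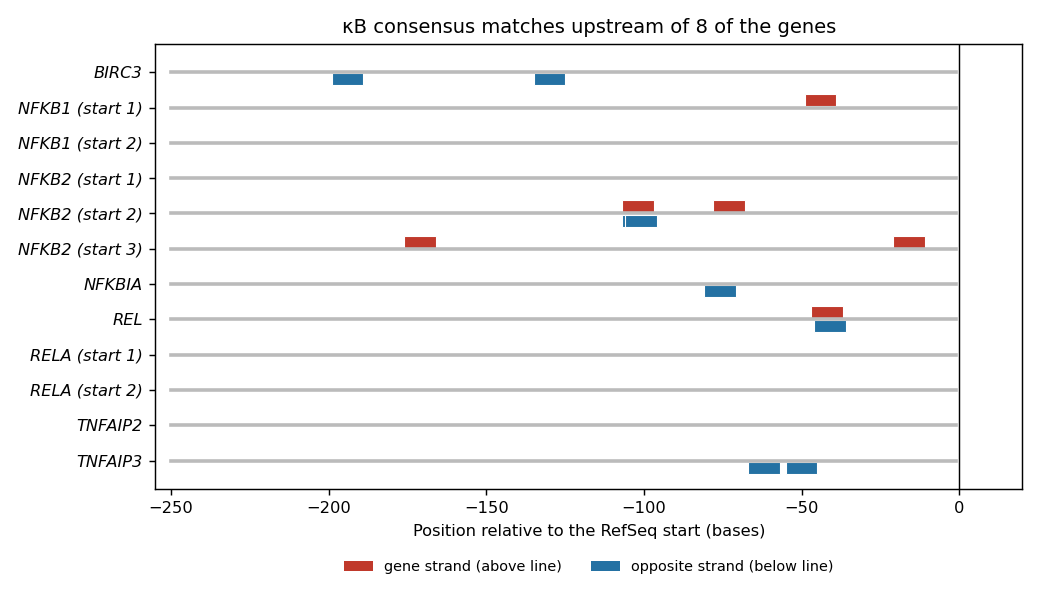
Matches to the κB consensus in the 12 upstream windows of 8 genes; the x axis is the position in bases relative to the RefSeq start, the grey line is the window of 250 bases, and boxes above and below the line are matches on the gene's strand and on the opposite strand. Matches of *NFKB1*, *REL*, *NFKBIA* and *TNFAIP3* lie between −81 and −37, those of *BIRC3* lie farther out at −199 and −135, and the windows of *RELA* and *TNFAIP2* are empty.

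The window of *NFKBIA*, the gene of the classical feedback inhibitor, is given whole next to that of *TNFAIP2*, the gene that changed most among the 10 in 14B5 versus WT. For *TNFAIP2* it ends where the GENCODE v29 gene begins:
NFKBIA, chr14:35404750-35404999, minus strand: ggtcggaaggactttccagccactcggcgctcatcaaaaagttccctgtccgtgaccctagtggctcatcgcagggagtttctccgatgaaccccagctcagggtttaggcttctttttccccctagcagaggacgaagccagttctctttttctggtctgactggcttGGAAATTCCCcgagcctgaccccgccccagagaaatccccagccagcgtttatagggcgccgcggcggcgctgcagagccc
TNFAIP2, chr14:103123211-103123441, plus strand: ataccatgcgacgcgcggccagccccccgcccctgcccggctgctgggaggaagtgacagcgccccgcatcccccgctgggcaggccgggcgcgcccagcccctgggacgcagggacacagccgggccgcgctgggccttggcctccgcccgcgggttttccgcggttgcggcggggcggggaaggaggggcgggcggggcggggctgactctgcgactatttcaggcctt

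Library totals ran from 32347779 to 60272245 expected counts, the reads that RSEM assigned to genes after dividing those that match several. The mitochondrial share of the counts was 3.54% to 6.03% in WT, 7.23% to 7.39% for clone 11H1 and 3.30% to 3.92% for clone 14B5. Of 13 megakaryocytic markers 10 were at 1 CPM (counts per 1000000 of the TMM-scaled library size) or more in WT, led by *ITGA2B*, and their summed level was 2164 to 2173 CPM in WT, 1743 to 1828 in 11H1 and 1741 to 1792 in 14B5. The late platelet gene *PF4* was at 0.461 to 0.559 CPM in WT and at 0 in all 6 clone libraries, where a count of 0 allows up to 0.0502 to 0.0914 CPM from 3 counts, a limit of counting error only. Of 12 tested megakaryocytic markers 9 were lower and 1 higher than WT in 11H1, beside 32.8% and 31.8% of all genes, and 9 were lower and 2 higher in 14B5, beside 28.7% and 24.9%. The transcription factor gene *TAL1* was the one higher in 11H1 (log2FC 0.46), and *TAL1* (0.34) and *NFE2* (0.18) were higher in 14B5. *DYRK1A* RNA stood between 196 and 219 CPM in WT, 188 and 192 CPM for clone 11H1 and 174 and 191 CPM for clone 14B5. Its log2FC against WT was −0.09 in 11H1 (SE 0.05, edgeR adjusted p = 0.131) and −0.17 in 14B5 (SE 0.06, edgeR adjusted p = 0.0278), the latter past the threshold in 9 of 15 alternatives. Expected counts do not show a reading frame, so these levels do not check the knockout.

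All 10 genes passed the filter on low counts in each comparison. In 11H1 versus WT, 2 of the 10 were higher (*REL* and *RELA*), 2 were lower (*NFKBIE* and *TNFAIP2*) and 6 did not pass the test (edgeR quasi-likelihood test, Benjamini-Hochberg adjusted over all genes, threshold 0.05). Of the 16675 genes tested there 31.8% were higher and 32.8% lower. Each count among the 10 ran from 2 to 3 over the alternatives, near these shares. In 14B5 versus WT, 2 were higher (*RELA* and *NFKBIA*), 5 were lower (*NFKB1*, *NFKB2*, *NFKBIE*, *BIRC3* and *TNFAIP2*) and 3 did not pass, where 24.9% of 16537 genes were higher and 28.7% lower. The median log2FC of the 10 was −0.12 in 11H1 and −0.20 in 14B5, beside −0.01 over all tested genes in both comparisons. In 11H1 versus 14B5, 4 were higher in 11H1 (*NFKB2*, *TNFAIP3*, *BIRC3* and *TNFAIP2*) and 2 were lower (*RELB* and *NFKBIA*), against 31.6% and 32.1% of 16352 genes. Both comparisons with WT use the same 3 WT libraries, and in bulk RNA fewer cells of a type and less RNA per cell cannot be told apart.

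**Figure D2:**
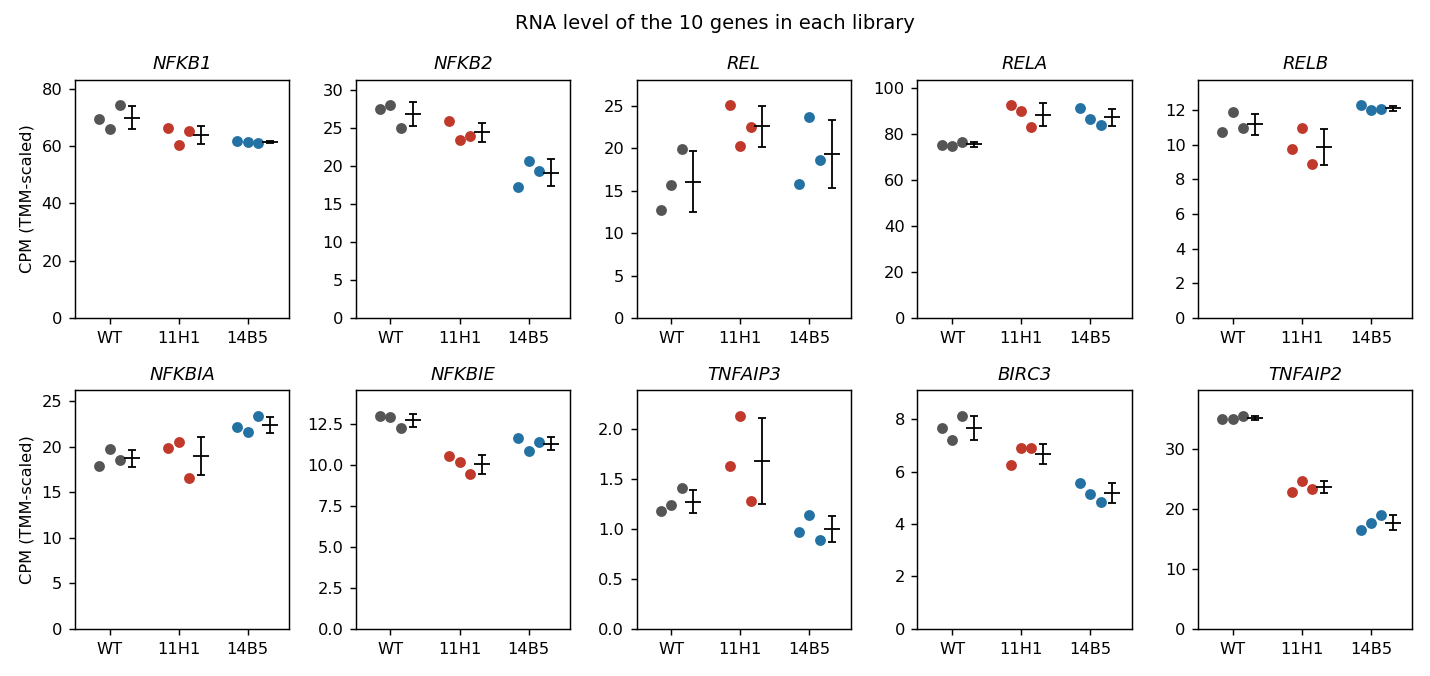
RNA level of the 10 genes in CPM (TMM-scaled) on the y axis of each panel, with 1 dot per library of WT, 11H1 and 14B5 and the mean ± SD (n = 3) in black. *TNFAIP2* steps down from 35.2 in WT to 23.6 in 11H1 and 17.7 CPM in 14B5 without overlap, whereas the *REL* libraries scatter within each group.

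Among the activating subunits, *RELA* was higher than WT in each clone and did not pass the test between the clones. *RELA*, on chromosome 11 from 65653596 to 65663094 on the minus strand (GENCODE v29, GRCh38), encodes p65, the main transactivating partner of p50. The WT libraries held 75.0, 74.7 and 76.4 CPM, the 11H1 libraries 92.4, 89.9 and 82.8 CPM, and the 14B5 libraries 91.0, 86.3 and 84.0 CPM. All 6 clone libraries were above all 3 WT libraries. The log2FC was 0.24 in 11H1 (SE 0.05, 1.18-fold, edgeR adjusted p = 0.00151). In 14B5 the log2FC was 0.19 (SE 0.05, 1.14-fold, edgeR adjusted p = 0.00629). Between 11H1 and 14B5 it was 0.03 (SE 0.05, edgeR adjusted p = 0.650). The 87 other genes tested within 1000000 bases had a median log2FC of 0.10 in 11H1 versus WT, with the sign of *RELA*. In 14B5 versus WT 86 such genes had 0.04, and their part in the result was not tested. The annotation places a noncoding gene, *AP001362.2*, over *RELA* on the opposite strand, and whether reads were counted by strand is not given in the sources used here.

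*REL*, on chromosome 2 from 60881521 to 60931610, encodes c-Rel, a subunit known best from lymphoid cells. Its level was 12.7, 15.6 and 19.9 CPM in WT, 25.1, 20.3 and 22.5 CPM in 11H1 and 15.8, 23.6 and 18.6 CPM in 14B5. The 11H1 libraries lay above WT, although the lowest of them exceeded the highest WT library by little, and the 14B5 libraries overlapped both groups. In 11H1 the log2FC against WT was 0.51 (SE 0.13, 1.43-fold, edgeR adjusted p = 0.00488), and all 15 alternatives kept the call. In 14B5 it was 0.26 (SE 0.17, edgeR adjusted p = 0.216), and it passed without WT replicate 3 (0.45, adjusted p = 0.0311 in edgeR) and with no filter on low counts (0.30, adjusted p = 0.0474), but was 0.10 without 14B5 replicate 2 (adjusted p = 0.619). The difference between the clones was 0.23 (SE 0.12, edgeR adjusted p = 0.116), and it passed without 14B5 replicate 2 (0.40, adjusted p = 0.00402 in edgeR) and with no filter (0.21, adjusted p = 0.00441), but was 0.11 without 14B5 replicate 1 (adjusted p = 0.397). *REL* was the only one of the 10 whose expected counts were not whole numbers in any library, since RSEM shared some of its reads with other entries; the annotation puts *RNU4-51P* and *AC010733.2* inside it on the same strand. What part that division has in its scatter was not tested. The 16 other genes tested within 1000000 bases had a median log2FC of 0.08 in 11H1 and 0.06 in 14B5 versus WT. Their part in the result was not tested either.

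*RELB*, on chromosome 19 from 45001430 to 45038198, encodes the subunit that pairs mainly with p52 in the noncanonical pathway. WT libraries held 10.7, 11.8 and 10.9 CPM of it, 11H1 libraries 9.72, 10.9 and 8.88 CPM and 14B5 libraries 12.26, 11.96 and 12.03 CPM. Libraries of 11H1 and WT overlapped, and all 14B5 libraries were above those of 11H1. Neither clone passed the test against WT, with a log2FC of −0.18 in 11H1 (SE 0.09, edgeR adjusted p = 0.1004) and 0.10 in 14B5 (SE 0.07, edgeR adjusted p = 0.266). The value in 11H1 was −0.25 without 11H1 replicate 2 (adjusted p = 0.0396 in edgeR) and −0.11 without 11H1 replicate 3 (adjusted p = 0.326). Set against each other the clones differed by −0.29 (11H1 minus 14B5, SE 0.08, edgeR adjusted p = 0.00615). The 64 other genes tested within 1000000 bases had a median log2FC of 0.04 in that comparison, opposite to *RELB*.

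The precursor genes fell in 14B5. *NFKB2*, on chromosome 10 from 102394110 to 102402529, encodes p100, whose processing to p52 defines the noncanonical pathway. Its level was 27.4, 28.0 and 25.0 CPM in WT, 25.8, 23.4 and 23.9 CPM in 11H1 and 17.2, 20.7 and 19.4 CPM in 14B5. The 14B5 libraries were below all others, whereas 11H1 overlapped WT. The log2FC against WT was −0.50 in 14B5 (SE 0.08, 0.705-fold, edgeR adjusted p = 0.000319) and −0.13 in 11H1 (SE 0.07, edgeR adjusted p = 0.108), and without WT replicate 3 the latter was −0.18 (adjusted p = 0.0204). 11H1 exceeded 14B5 by a log2FC of 0.36 (SE 0.07, 1.28-fold, edgeR adjusted p = 0.000868). The 35 other genes tested within 1000000 bases of *NFKB2* had a median log2FC of 0.03 in 14B5.

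*NFKB1*, on chromosome 4 from 102501329 to 102617302, encodes p105 and its product p50, the most widely used partner of RELA. The WT libraries were at 69.5, 66.0 and 74.2 CPM, 11H1 at 66.1, 60.3 and 65.3 CPM and 14B5 at 61.6, 61.3 and 61.1 CPM. The 14B5 libraries lay close together below WT, and 11H1 replicate 1 reached into the WT range. In 14B5 the log2FC was −0.20 (SE 0.05, 0.868-fold, edgeR adjusted p = 0.00706). In 11H1 it was −0.12 (SE 0.06, edgeR adjusted p = 0.0805), and it passed the threshold without WT replicate 2 (−0.17, adjusted p = 0.0359) and with no filter on low counts (−0.14, adjusted p = 0.0293), but was −0.08 without 11H1 replicate 2 (adjusted p = 0.300). The clones did not pass the test against each other (0.07, SE 0.05, edgeR adjusted p = 0.229). The 12 other genes tested within 1000000 bases had a median log2FC of −0.17 in 11H1 and −0.11 in 14B5 versus WT. Both have the sign of *NFKB1*, and their part in the result was not tested.

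**Figure D3:**
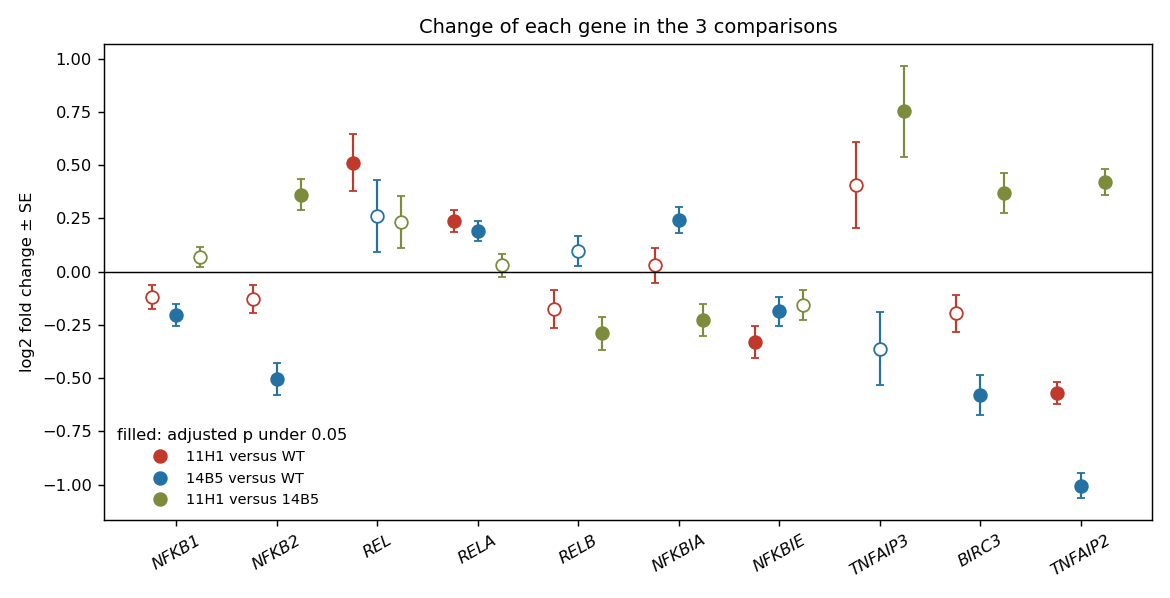
The log2FC of each gene on the y axis, with its SE as the bar, in 11H1 versus WT, 14B5 versus WT and 11H1 versus 14B5; filled points passed an edgeR adjusted p of 0.05. *TNFAIP2* lies at −0.57 and −1.005 against WT, *RELA* is filled above 0 in both clones, and *TNFAIP3* has the largest difference between the clones (0.75).

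To compare subunits with one another, counts were divided by exon length and scaled to sum to 1000000 in each library (TPM). The summed TPM of the 5 subunits was 118 ± 9.56 in WT, 122 ± 6.47 in 11H1 and 118 ± 3.79 in 14B5 (SD, n = 3 each), while its makeup differed. TPM were not TMM-scaled, and *RELA* in WT ran from 42.0 to 48.9 TPM but from 74.7 to 76.4 CPM. The sums therefore also carry library-wide scaling, whereas shares within a library do not. *RELA* made up 38.7%, 38.5% and 38.3% of the sum in the WT libraries, 44.1%, 45.1% and 42.6% in 11H1 and 46.8%, 44.0% and 44.1% in 14B5, so that every clone library was above every WT library. The share of *NFKB1* was 31.2% ± 1.39 in WT, 27.8% ± 1.47 in 11H1 and 27.7% ± 0.395 in 14B5 (SD, n = 3 each), again without overlap between WT and either clone. *NFKB2* held 16.7% ± 1.23 in WT, 14.8% ± 0.409 in 11H1 and 12% ± 1.09 in 14B5, in separate ranges. Both precursor genes therefore had lower mean shares and *RELA* a higher one in each clone, in shares that must sum to the whole. *RELB* took 10.3% ± 0.622 in WT, 8.82% ± 0.919 in 11H1 and 11.2% ± 0.233 in 14B5, and *REL* 3.40% ± 0.710, 4.66% ± 0.394 and 4.14% ± 0.813. A 2-sided exact permutation test of 3 libraries against 3 cannot go below p = 0.1. For *RELA* this exact test gave p = 0.1 in each clone against WT (0.167 after Benjamini-Hochberg adjustment over the 15 share comparisons), so none of these shares can pass the threshold by this test.

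**Figure D4:**
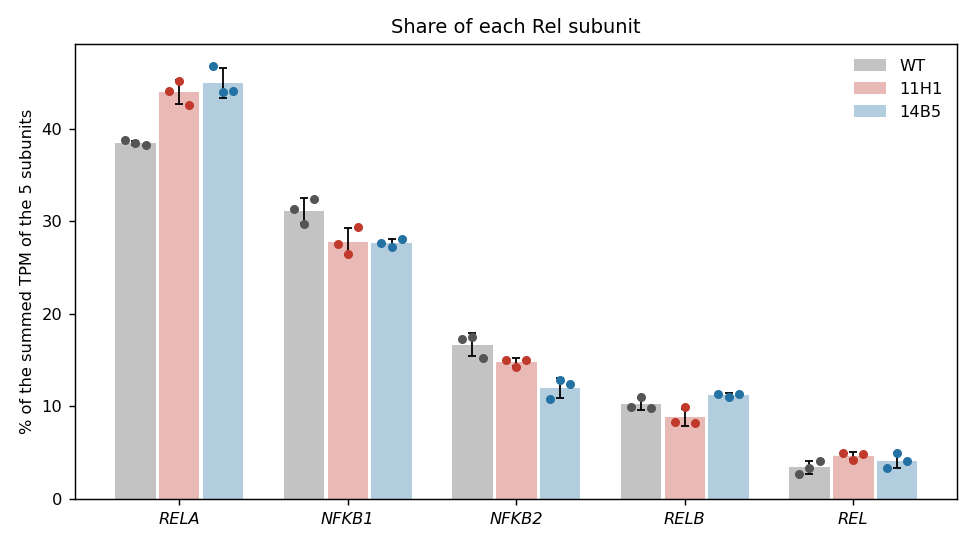
Share of each Rel subunit in the summed TPM of the 5 subunits, in percent; bars are the means of 3 libraries of WT, 11H1 and 14B5, error bars the SD and dots the libraries. *RELA* is at 38.5% in WT and at 43.9% and 45.0% in the clones, and *NFKB2* at 16.7% in WT and at 12% in 14B5.

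Of the IκB genes, *NFKBIA* was higher than WT in 14B5 only, and *NFKBIE* was lower in 11H1 and, less firmly, in 14B5. *NFKBIA*, on chromosome 14 from 35401511 to 35404749 on the minus strand, held 17.9, 19.7 and 18.5 CPM in WT, 19.8, 20.5 and 16.6 CPM in 11H1 and 22.2, 21.6 and 23.4 CPM in 14B5. The 11H1 libraries spread around WT, and those of 14B5 were above both groups. Against WT the log2FC was 0.24 in 14B5 (SE 0.06, 1.18-fold, edgeR adjusted p = 0.00713) and 0.03 in 11H1 (SE 0.08, edgeR adjusted p = 0.768). *NFKBIA* was lower in 11H1 than in 14B5 by a log2FC of −0.23 (SE 0.08, edgeR adjusted p = 0.0188), which did not pass without 11H1 replicate 3 (−0.15, adjusted p = 0.0620) or without 14B5 replicate 3 (−0.20, adjusted p = 0.0501). The 17 genes tested within 1000000 bases had a median log2FC of 0.17 in 14B5 versus WT, and 19 such genes had −0.32 in 11H1 versus 14B5, the same directions as *NFKBIA*; their part in the result was not tested.

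*NFKBIE*, on chromosome 6 from 44258166 to 44265788 on the minus strand, encodes an IκB that restrains mainly RELA and c-Rel dimers. Its level was 12.96, 12.9 and 12.2 CPM in WT, 10.5, 10.2 and 9.40 CPM for 11H1 and 11.6, 10.9 and 11.4 CPM for 14B5. Every clone library was below every WT library. The log2FC was −0.33 in 11H1 (SE 0.08, 0.796-fold, edgeR adjusted p = 0.00230). In 14B5 it was −0.19 (SE 0.07, 0.878-fold, edgeR adjusted p = 0.0400), a call that held in only 6 of 15 alternatives, whose log2FC ran from −0.21 to −0.14. It was lost in the DESeq2 Wald test (adjusted p = 0.151), and leaving out any 1 of 5 of the 6 libraries also lost it. Between the clones the log2FC was −0.16 (SE 0.07, edgeR adjusted p = 0.0640). The 22 other genes tested within 1000000 bases had a median log2FC of 0.06 in 11H1 versus WT, opposite to *NFKBIE*. In 14B5 versus WT 21 such genes had 0.02.

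Of the feedback genes beyond the IκBs, *TNFAIP2* was lower in both clones and *BIRC3* in 14B5, and *TNFAIP3* was scarce. *TNFAIP2*, on chromosome 14 from 103123442 to 103137439, had the largest change of the 10 genes against WT in 14B5, and in 11H1 too except without WT replicate 3, where *REL* was at 0.68 and *TNFAIP2* at −0.57. Its level was 35.01, 34.96 and 35.5 CPM in WT, 22.9, 24.8 and 23.3 CPM in 11H1 and 16.5, 17.6 and 19.0 CPM in 14B5. The 3 groups did not overlap, with WT highest and 14B5 lowest. The log2FC against WT was −0.57 in 11H1 (SE 0.05, 0.674-fold, edgeR adjusted p = 1.73e-06). In 14B5 it was −1.005 (SE 0.06, 0.498-fold, edgeR adjusted p = 4.04e-07). The clones differed from each other by 0.42 (11H1 minus 14B5, SE 0.06, edgeR adjusted p = 0.000110). All 15 alternatives kept these calls, from −0.60 to −0.55 in 11H1 and from −1.05 to −0.94 in 14B5. The 29 genes tested within 1000000 bases of *TNFAIP2* had a median of 0.21 in 11H1 and 0.14 in 14B5, opposite to *TNFAIP2*. The summed level of the megakaryocytic markers was lower in the same clones, as given above, and its part in this result was not tested.

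The 3 genes nearest to *TNFAIP2* were sought by the pair of log2FC values in 11H1 and 14B5, among 13572 genes whose mean reached 1 CPM. *CELSR3* was at −0.53 and −0.99, *ZNF436-AS1* at −0.60 and −0.98, and *PLCG1* at −0.57 and −0.96, at Euclidean distances of 0.0363, 0.0410 and 0.0448. Both values of a pair share the WT libraries.

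*BIRC3*, on chromosome 11 from 102317450 to 102339403, held 7.67, 7.19 and 8.12 CPM in WT, 6.24, 6.88 and 6.90 CPM in 11H1 and 5.58, 5.14 and 4.84 CPM in 14B5. Libraries of the 3 groups did not overlap. The log2FC was −0.58 in 14B5 (SE 0.09, 0.668-fold, edgeR adjusted p = 0.000499). In 11H1 it was −0.20 (SE 0.09, edgeR adjusted p = 0.0692), which passed the threshold in no alternative. 11H1 was above 14B5 by 0.37 (SE 0.09, 1.29-fold, edgeR adjusted p = 0.00456). The 6 other genes tested within 1000000 bases had a median log2FC of −0.26 in 11H1 and −0.06 in 14B5 versus WT, with the sign of *BIRC3*. In 11H1 versus 14B5 5 such genes had −0.38, opposite to it, and their part in the result was not tested. For the related ligase gene *BIRC2*, named here after its values were seen, the log2FC was 0.03 in 11H1 and 0.15 in 14B5, neither past the threshold.

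*TNFAIP3*, on chromosome 6 from 137867188 to 137883312, was the lowest of the 10, with 42 to 89 expected counts in a library. Its level was 1.18, 1.24 and 1.41 CPM in WT, 1.63, 2.13 and 1.28 CPM for 11H1 and 0.971, 1.14 and 0.888 CPM for 14B5. WT and 11H1 overlapped, and 14B5 was lowest. The clones differed by a log2FC of 0.75 (11H1 minus 14B5, SE 0.21, 1.68-fold, edgeR adjusted p = 0.00888), the largest difference between clones among the 10, while neither passed the test against WT (0.40, SE 0.20, edgeR adjusted p = 0.0986 in 11H1 and −0.36, SE 0.17, edgeR adjusted p = 0.101 in 14B5). The value in 11H1 was 0.55 without 11H1 replicate 3 (adjusted p = 0.0321) and 0.23 without 11H1 replicate 2 (adjusted p = 0.360). An antisense gene, *AL357060.1*, overlaps *TNFAIP3*, and the 8 genes tested within 1000000 bases had a median log2FC of −0.73 in 14B5 versus WT, with the sign of *TNFAIP3* there, and 9 such genes had −0.30 in 11H1 versus WT, opposite to it; their part in the result was not tested.

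Ordered by length-scaled level, *RELA* was highest in each group, followed by *NFKB1* and *NFKBIA*, and *REL*, *BIRC3* and *TNFAIP3* held the last places. In WT the means were 45.5 ± 3.41 TPM for *RELA*, 36.9 ± 3.96 for *NFKB1* and 26.1 ± 2.6 for *NFKBIA* (SD, n = 3). *TNFAIP2* ranked 4 in WT at 23.1 ± 1.69 TPM, in a range that overlapped *NFKBIA*. Within each WT library *NFKBIA* was the higher (23.1, 27.8 and 27.3 TPM against 21.3, 23.2 and 24.7 for *TNFAIP2*). In 11H1 *TNFAIP2* ranked 5 (15.6 ± 0.542 TPM) behind *NFKB2* (18.0 ± 1.22), and in 14B5 it ranked 7 (11.7 ± 0.689) behind *RELB* (13.2 ± 0.278). At the bottom *REL* and *BIRC3* overlapped in WT, at 4.07 ± 1.17 and 3.37 ± 0.356 TPM, but not in the clones, where *REL* was at 5.69 ± 0.680 in 11H1 and 4.88 ± 1.05 in 14B5. *NFKB1* and *NFKBIA* came within each other's range in 14B5, at 32.6 ± 0.614 and 31.3 ± 0.764 TPM. In 14B5 *NFKB2* overlapped both *NFKBIE* above it and *RELB* below it, while *NFKBIE* and *RELB* did not overlap each other (14.1 ± 1.38, 14.5 ± 0.434 and 13.2 ± 0.278 TPM for *NFKB2*, *NFKBIE* and *RELB*).

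Outside the 10, the pathway was read from 4 lists of 99 genes in all. In 11H1 versus WT, 23 of 79 tested were higher and 24 lower (59.5% called, against 64.6% of all genes). In 14B5 versus WT, 20 of 78 were higher and 27 lower (60.3%, against 53.5%), and in 11H1 versus 14B5, 25 of 77 were higher and 27 lower (67.5%, against 63.7%). Ligands and receptors are the entry to the pathway. Of 16 tested, 1 was higher and 8 lower in 11H1 (median log2FC −0.38), beside 31.8% and 32.8% of all genes. In 14B5 1 was higher and 10 lower (median −0.47), beside 24.9% and 28.7%.

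*TLR4*, the receptor for bacterial lipopolysaccharide, was at 3.90 ± 0.138 CPM in WT, 0.349 ± 0.101 in 11H1 and 0.236 ± 0.0396 in 14B5 (SD, n = 3 each). Its log2FC was −3.52 in 11H1 (SE 0.19, edgeR adjusted p = 2.45e-08) and −4.05 in 14B5 (SE 0.17, edgeR adjusted p = 3.63e-08). *TNFRSF1B*, which encodes TNF receptor 2, fell from 22.0 ± 0.448 to 5.45 ± 0.630 CPM in 11H1 (log2FC −2.01) and was also lower in 14B5 (−1.17). *IL1B*, the gene of the cytokine IL-1β, fell from 127 ± 4.03 to 50.9 ± 1.09 CPM in 11H1 (log2FC −1.32) and was lower in 14B5 as well (−1.18). In 14B5 *TLR1*, the partner of TLR2 in sensing lipopeptides, was lower by a log2FC of −2.49 (−0.56 in 11H1, also lower), and *TNFRSF13C*, the receptor for BAFF, by −1.20. *TNFRSF13C* (1.37) and *TLR6* (1.18) were higher in 11H1 than in 14B5, and *TNFSF13B*, the gene of BAFF itself, was lower (−0.90; 38.2 ± 1.69 against 71.6 ± 3.60 CPM). Several of these receptors are also used by monocytes. Of 8 monocyte markers 3 were at 1 CPM or more, their summed level was 381 to 393 CPM in WT, 206 to 224 in 11H1 and 267 to 287 in 14B5, and *S100A8* was at 0 in every library and *CD14* at 0.122 CPM or less. All 4 monocyte markers that were tested were lower than WT in 11H1, beside 32.8% of all genes. In 14B5 3 were lower and 1 higher, beside 28.7% and 24.9%. Lower there were *LYZ* (−0.76), *ITGAM* (−1.67) and *CSF1R* (−4.99, from only 0.465 CPM in WT), and *CD68* was higher (0.18). Their part in the receptor result was not tested.

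**Figure D5:**
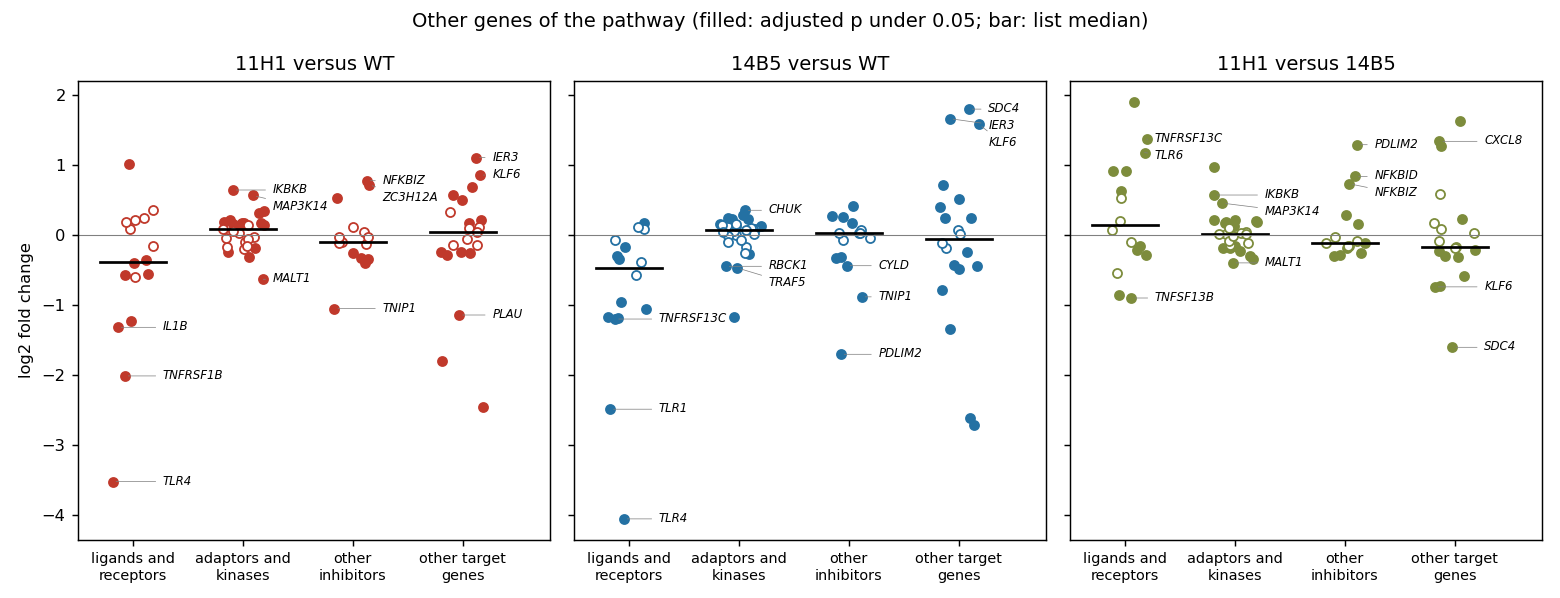
The log2FC on the y axis of each tested gene of 4 lists in the 3 comparisons; filled points passed an edgeR adjusted p of 0.05, black bars are the list medians, and the labelled genes are the 3 largest changes of a list at a mean of 1 CPM or more. Ligands and receptors have medians of −0.38 and −0.47 against WT, led by *TLR4*, while the medians of the other lists lie between −0.09 and 0.09 there.

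Adaptors and kinases had medians nearer to 0. In 11H1 versus WT 12 of 27 were higher and 4 lower (median 0.09), beside 31.8% and 32.8% of all genes. In 14B5 versus WT 7 were higher and 4 lower (median 0.07), beside 24.9% and 28.7%. *IKBKB*, which encodes the catalytic IκB kinase of the canonical pathway, was at 42.9 ± 3.22 CPM in WT and 66.8 ± 2.10 in 11H1 (log2FC 0.65, SE 0.06, edgeR adjusted p = 1.96e-06). It was at 45.1 ± 1.04 CPM in 14B5, below 11H1 by the direct test (11H1 minus 14B5, 0.57, edgeR adjusted p = 7.07e-07). *MAP3K14*, the gene of the noncanonical kinase NIK, was higher in 11H1 than in WT (0.57) and than in 14B5 (0.46), and *MALT1*, a paracaspase, was lower in both of these comparisons (−0.63 and −0.39). In 14B5 versus WT *CHUK*, the other catalytic IκB kinase gene, rose (0.36), and *TRAF5* (−0.47) and *RBCK1* (−0.44), an adaptor and a subunit of the linear ubiquitin ligase, fell. These 3 were called in the same directions in 11H1 (0.22, −0.31 and −0.24). Between the clones 10 of the 27 were higher in 11H1 and 7 lower, beside 31.6% and 32.1% of all genes.

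Among the other inhibitors 3 of 15 were higher and 5 lower in 11H1 versus WT (median −0.09), beside 31.8% and 32.8% of all genes. In 14B5 versus WT 4 were higher and 5 lower (median 0.03), beside 24.9% and 28.7%. *TNIP1*, which encodes a partner of A20, was at 76.5 ± 1.66 CPM in WT, 36.8 ± 0.332 in 11H1 (log2FC −1.05, SE 0.05, edgeR adjusted p = 3.49e-09) and 42.0 ± 2.89 in 14B5 (−0.88, SE 0.06, edgeR adjusted p = 7.65e-07). *NFKBIZ*, an atypical IκB that works in the nucleus, was higher in 11H1 than in WT (0.78) and than in 14B5 (0.74). *ZC3H12A*, the gene of the RNase Regnase-1, was higher than WT in 11H1 (0.72) and in 14B5 (0.42). *PDLIM2*, which encodes a nuclear ubiquitin ligase for RELA, was lower in 14B5 than in WT (−1.70), and *CYLD*, a deubiquitinase, was lower there as well (−0.43). Both were also lower in 11H1 (−0.39 and −0.25). *PDLIM2* (1.29) and *NFKBID* (0.84), the gene of another nuclear IκB, were higher in 11H1 than in 14B5. In that comparison 5 of 15 were higher and 6 lower, beside 31.6% and 32.1% of all genes.

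Other target genes split. Of 21 tested in 11H1 versus WT 7 were higher and 7 lower (median 0.05), beside 31.8% and 32.8% of all genes. Of 20 in 14B5 versus WT 8 were higher and 8 lower (median −0.05), beside 24.9% and 28.7%. *KLF6*, a zinc-finger transcription factor gene, was at 10.9 ± 0.446 CPM in WT, 19.7 ± 1.28 in 11H1 (log2FC 0.86) and 33.1 ± 0.536 in 14B5 (1.58). *IER3*, an immediate early gene, was low but higher than WT in 11H1 (1.11) and in 14B5 (1.67). *SDC4*, the gene of the heparan sulfate proteoglycan syndecan-4, was at 17.3 ± 0.602 CPM in WT and 61.1 ± 0.274 in 14B5 (1.80, SE 0.05, edgeR adjusted p = 2.74e-09). It was also higher than WT in 11H1 (0.22), and lower in 11H1 than in 14B5 (−1.60). *PLAU*, which encodes urokinase, was lower than WT in 11H1 (−1.14) and in 14B5 (−0.43). *CXCL8*, the gene of interleukin-8, was higher in 11H1 than in 14B5 (1.34; 2.06 ± 0.352 against 0.813 ± 0.0380 CPM), whereas *KLF6* was lower (−0.74). Between the clones 4 of 19 were higher in 11H1 and 9 lower (median −0.17), beside 31.6% and 32.1% of all genes.

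Markers of other cell types were read as well. Of 10 erythroid markers 5 were higher and 4 lower in 11H1 versus WT (31.8% and 32.8% of all genes) and 2 higher and 1 lower in 14B5 versus WT (24.9% and 28.7%), with *HBG2*, a fetal globin gene, taking most of a summed level of 12723 to 16148 CPM over all libraries. The T cell markers summed to 184 to 240 CPM, nearly all of it *CD4*, which myeloid cells also express. *CD3E* stayed at 0.395 CPM or less, while *CD3D* was at 2.41 to 3.62 CPM in 11H1 and 0.802 to 0.875 CPM in WT (log2FC 1.86, edgeR adjusted p = 3.38e-06) and lower than WT in 14B5 (−1.28). The B cell markers summed to 40.3 to 47.2 CPM in WT, 31.2 to 32.04 in 11H1 and 23.6 to 30.1 in 14B5.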

How the data were processed

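SET2 cells were profiled by bulk RNA-seq in 3 groups of 3 libraries, WT and *DYRK1A* KO clones 11H1 and 14B5. The paper's text speaks of fewer KO libraries than the 6 deposited, without naming the omitted one; the fits here include all 6, and the alternatives drop them singly. The deposited values are expected counts that the authors estimated per gene with RSEM, without normalization for depth or length. The submitters' processing notes name STAR 2.7.9a, Picard, RSEM and GRCh38; the annotation release and the RSEM version are not given in the sources used here. The methods describe stranded mRNA libraries and the labels another kit. Of 60754 entries, 92 spike-ins at 0 were left out.

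Counts were rounded and tested with edgeR 4.0.16 (R 4.3.3): TMM, filterByExpr, a quasi-likelihood F test of the groups compared and Benjamini-Hochberg adjustment over all genes tested (threshold 0.05). Comparisons were 11H1 versus WT, 14B5 versus WT and 11H1 versus 14B5. The SE of a log2FC is not an output of this test. It was derived as the absolute log2FC divided by the square root of the F statistic. Shares were compared with exact permutation tests (SciPy 1.17.1). TPM used the exon union of GENCODE v29, which placed 58587 genes (96.6%). The sequences were RefSeq promoter windows on GRCh38.p14. *LTBR* was matched by its identifier because its symbol in the table differed. Where *SOD2* had several entries the protein-coding one with the highest mean was used.

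Named genes were the 10 genes, *DYRK1A*, up to 3 genes per list and comparison with the largest log2FC past the threshold and a mean of 1 CPM or more, and the 3 genes nearest to the most changed of the 10. Lists covered pathway inputs, adaptors and kinases, other inhibitors, other targets, and megakaryocytic, erythroid, monocyte, T cell and B cell markers. The genes, lists and tests were chosen with earlier results of these data known. Alternatives were DESeq2 1.42.0 size factors and Wald test, limma-voom (limma 3.58.1), a fit of all 3 groups, replicate number as a block, other filters and gene sets, and each library left out. Only the main edgeR fit was run on simulated counts. These had the same spread for all genes, fewer changed genes than were called here and larger changes than most of the 10 genes had. The shares, lists and sequence matches were not tested that way. Library pairs within a group differed by 4.04 to 35.8 times the sampling noise, so none was a copy of another. Intervals from counts cover counting error only, since reads carried no molecule marks.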

Additional observations from a re-analysis of the deposited data

Results flagged for a closer look

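For 6 of the 10 genes the clones differed by a direct test of 11H1 against 14B5 (edgeR, adjusted over all genes). *TNFAIP3* was higher in 11H1 by a log2FC of 0.75, *TNFAIP2* by 0.42, *BIRC3* by 0.37 and *NFKB2* by 0.36. *RELB* was lower in 11H1 by a log2FC of −0.29 and *NFKBIA* by −0.23. *TNFAIP2* was below WT in both clones and differed in extent, whereas *TNFAIP3* lay above WT in 11H1 and below it in 14B5 with neither passing the test. The 6 calls among 10 genes are near the share of all tested genes that differed between the clones, 63.7% (31.6% higher and 32.1% lower in 11H1).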

How the results depend on the processing

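Each of the 10 genes was recomputed under 15 alternatives in each of the 3 comparisons. Of the 450 values 425 kept their direction and their side of the threshold, 11 no longer passed it, 10 newly passed it and 4 changed sign, none of the last in a gene that had passed. The sign changes were *NFKBIA* in 11H1 versus WT (−0.0096 without WT replicate 1, −0.011 without 11H1 replicate 1 and −0.021 without 11H1 replicate 2, from −0.021 to 0.12 over the left-out libraries) and *RELA* in 11H1 versus 14B5 (−0.0064 without 11H1 replicate 1, from −0.0064 to 0.066 over the left-out libraries). Of the 11 losses 9 were *NFKBIE* in 14B5 versus WT and the other two *NFKBIA* in 11H1 versus 14B5. The count of genes lower in 11H1 than in 14B5 ran from 1 to 2 over the left-out libraries, because *NFKBIA* dropped out without 11H1 replicate 3 or without 14B5 replicate 3. Numbers of genes called ran from 9172 to 11489 in 11H1 versus WT, 7529 to 9743 in 14B5 versus WT and 8661 to 11170 in 11H1 versus 14B5. The list genes were recomputed one by one only in comparisons where they had been picked as the largest changes past the threshold. That choice favours a kept call. Among these values and those of *DYRK1A* 578 of 585 kept their call, and all 7 that did not were of *DYRK1A*. Other calls of list genes, and those of the markers, were not recomputed one by one.

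Replicate numbers are shared by the groups, yet the deviations of same-numbered libraries correlated only between −0.145 and 0.0581. That shows no shared signal by number, but no label says whether the libraries were paired. With a replicate block 10710, 7529 and 10099 genes were called in the 3 comparisons, *NFKBIE* in 14B5 was at −0.19 (edgeR adjusted p = 0.101) and *NFKB1* in 11H1 was at −0.12 (adjusted p = 0.0396). Differences in subunit share moved by more than the spread between libraries in 3 of 120 alternatives, all without length scaling. Another 3 changed sign, all of *NFKB1* between the clones, a difference of 0.135 percentage points. *TNFAIP3*, at 42 to 89 counts, is where depth limits precision most.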
